A study of Mus musculus with 57 samples.

Results

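The genes described here are 35 aminoacyl-tRNA synthetases, taken as a named list and not by any measured value, out of 35275 genes in the count tables of glands and end buds. Of the 35, 19 encode cytosolic enzymes and 16 encode mitochondrial ones. Names follow the symbols of the mouse build mm10, in which a final 2 marks the mitochondrial enzyme, and Farsa and Farsb encode both subunits of the cytosolic phenylalanyl enzyme. All 35 were listed and passed the filter on low counts in 4 of the 5 tables. The table of NRG1 cultures holds 15 of them, of which 11 are cytosolic and 4 mitochondrial.

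RNA was sequenced from 57 samples of embryonic mouse salivary tissue, all labelled wild type except 4 glands labelled Erbb3 knockout. Untreated whole glands were taken at each embryonic day from E13 to E18, with 4 samples a stage. Wild-type end buds, the epithelial tips of the gland, were untreated or given NRG1, the neuregulin that binds ERBB3, for 4 h. The title E13 has 3 untreated and 3 NRG1-treated samples, and the title E14 has 2 and 3. Wild-type epithelium labelled E13 plus 72 h was given TORIN1, which blocks the mTOR kinase, or DMSO as its solvent, with 4 samples each. Glands of E16 labelled WT and Erbb3 KO gave 4 samples each, and wild-type E13 epithelium cultured with NRG1 gave 2 samples on each of days 2, 3 and 4. The sources used here do not state the doses, mouse strain, knockout allele or number of pooled animals, nor whether NRG1 was present with TORIN1. End buds of both titles carry the stage label E13 plus 4 h, except 1 NRG1 sample titled E14 that carries E13 plus 72 h, so E13 and E14 stand for the titles of the end buds.

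Total counts per sample were 13033868 to 25935489 in glands, 16027377 to 26306020 in end buds, 16318997 to 19671988 in the TORIN1 set and 8913271 to 11890488 in the KO set. The lowest count of a member in any sample of these sets was 37. Levels are given as CPM, counts scaled to a common library size after TMM scaling, as mean ± SD. Log2 fold changes are given ± SE, and called means that edgeR's quasi-likelihood test gave an adjusted p (Benjamini-Hochberg, over all genes tested) under 0.05. The markers of epithelium were higher in end buds than in E13 glands: their summed level was 3228 to 4052 CPM and 827 to 958 CPM. Whole glands reached 3544 to 3956 CPM at E16 and 3575 to 5989 CPM at E18, so this level alone does not mark separated epithelium. Whether replicates are separate animals or cultures is not stated, so the p-values speak only of how far these samples spread, and that spread could be technical.

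An aminoacyl-tRNA synthetase joins an amino acid to its tRNA, the step that sets which amino acid each codon is read as. Translation in the cytosol and in mitochondria uses separate sets of these enzymes, both encoded in the nucleus. Gars and Kars are exceptions, since each of these genes provides the glycyl or lysyl enzyme of both compartments. Eprs encodes a single chain with the glutamyl and prolyl enzymes, and several cytosolic synthetases (Eprs, Iars, Lars, Qars, Rars, Kars and Dars on this list) sit in a multisynthetase complex held by the scaffold proteins of Aimp1, Aimp2 and Eef1e1. Mitochondria have no glutaminyl enzyme of their own in this list: their glutaminyl-tRNA is made by an amidotransferase (Gatb, Gatc, Qrsl1). Many cytosolic synthetase genes are known targets of ATF4, a transcription factor of the amino acid and stress response. The title of the study names NRG1, ERBB3 and mTORC2 signalling in the building of the acinus, and mTOR is known to promote protein synthesis.

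Levels were compared between genes per kilobase of the principal annotated transcript, averaged over the samples of a table. In end buds Kars was highest at 114 CPM per kb, followed by Qars at 86.5 and Gars at 81.4. At the low end stood Mars2, the mitochondrial methionyl enzyme, at 1.86 CPM per kb, and Nars2, the asparaginyl one, at 2.23. Mars2's principal transcript is 11294 bases long, which lowers its value on this scale. Distances in this order changed with treatment: in E13 control buds Kars stood at 119 ± 4.71 and Gars at 39.7 ± 2.39 CPM per kb. In E13 NRG1 buds they stood at 119 ± 2.99 and 114 ± 4.48, and their samples overlapped. In whole glands of the stage series the order began with the mitochondrial leucyl gene Lars2 at 318 CPM per kb, ahead of Kars at 93.1. In the E16 glands of the KO set it began with Vars at 120 and Kars at 118, and Lars2 stood at 41.7.

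The first comparison was between end buds titled E13 with and without NRG1. Cytosolic synthetase transcripts were higher with NRG1 almost throughout: 17 of 19 were called higher and 0 lower, with a median log2 fold change of 0.77. Of the mitochondrial genes 8 of 16 were called higher and 0 lower, with a median of 0.17. Over all 16180 genes tested 42.4% were called, 23.1% as higher and 19.3% as lower, with a median of -0.02. The cytosolic enzyme had the higher fold change in 12 of 12 amino acids with a gene of their own in each arm, by a median log2 difference of 0.72. Phenylalanine, glutamate and proline were left out of this count, since Farsa and Farsb share 1 enzyme and Eprs holds 2. Scaled by library totals only, 17 cytosolic and 7 mitochondrial members were called higher and 1 of each arm lower.

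Aars, the alanyl enzyme, had 90.1, 86.2 and 93.8 CPM in the 3 control samples and 326, 336 and 325 CPM in the 3 NRG1 samples. The groups were far apart, and the log2 fold change of 1.87 ± 0.07 (adjusted p = 2.15e-10) was the highest among the 35 genes. Gars had 91.1, 91.3 and 101 CPM without NRG1 and 264, 269 and 284 CPM with it, a log2 change of 1.53 ± 0.07 (adjusted p = 3.69e-09). Farsb, the beta subunit of the phenylalanyl enzyme, had 35.8, 32.1 and 36.3 CPM without NRG1 and 96.9, 95.1 and 98.9 CPM with it (1.48 ± 0.06, adjusted p = 8.55e-10). No control sample overlapped the NRG1 samples for any of these genes. Aars shares 1326 exon bases with Exosc6 on the same strand and Farsb 248 bases with Sgpp2 on the other, and the sources used here do not state whether counting used the strand. Farsa, the alpha subunit of the same enzyme, rose less, from 56.5 ± 2.41 to 86.5 ± 2.45 CPM (n = 3 each), a log2 change of 0.61 ± 0.06. In the controls Farsb stood below Farsa in CPM and in the NRG1 samples above it. Cars, the cysteinyl enzyme, changed by 1.34 ± 0.06, and Eprs by 0.61 ± 0.07.

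The exceptions in the cytosolic arm were Kars and Qars, the lysyl and glutaminyl enzymes. Kars had 245, 245 and 229 CPM in controls and 244, 233 and 242 CPM with NRG1, so that the groups overlapped (log2 0.00 ± 0.06). Qars had 280, 261 and 261 CPM in controls and 256, 240 and 239 CPM with NRG1. Its 3 treated samples all lay below the controls, but the change of -0.13 ± 0.06 did not pass the test (adjusted p = 0.0858). Both enzymes belong to the multisynthetase complex. Of the 7 complex members 5 were called higher with a median of 0.61, and of the 12 cytosolic genes outside it 12 were called higher with a median of 1.18.

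**Figure D1:**
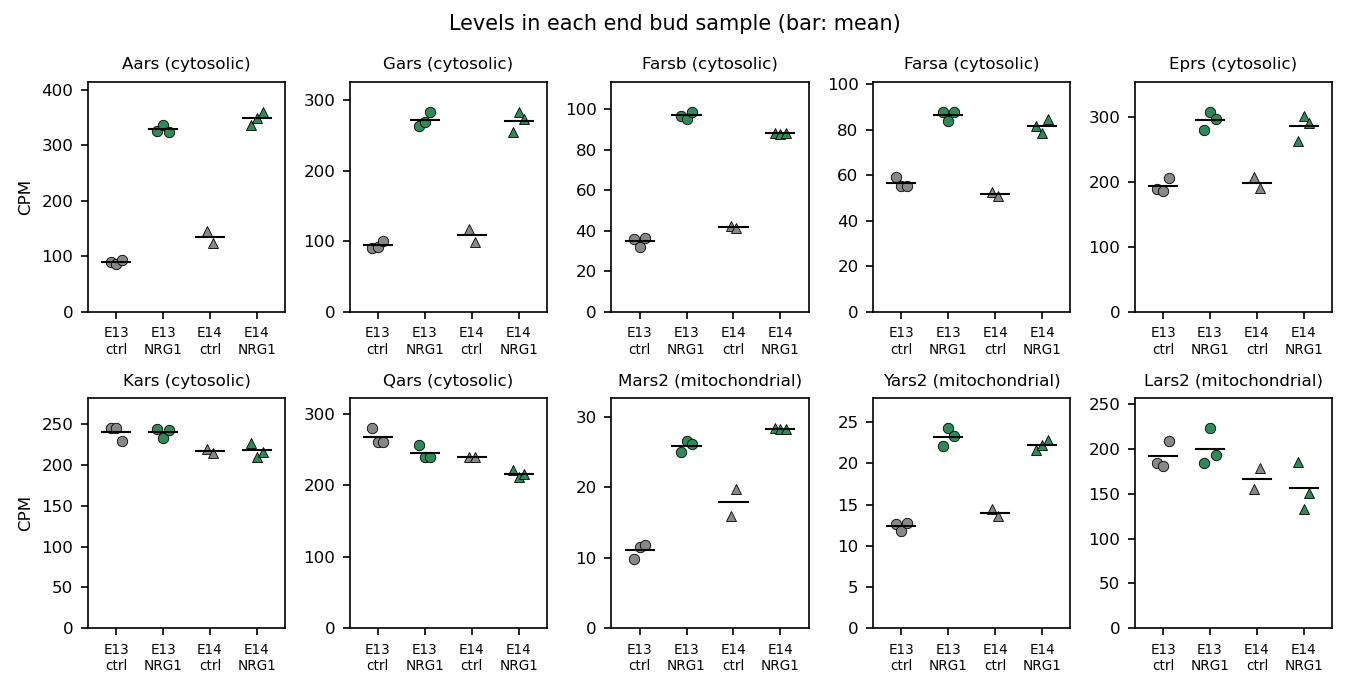
CPM of 10 synthetase genes in each end bud sample, with control samples in grey and NRG1 samples in green, circles for buds titled E13, triangles for buds titled E14 and a bar at each mean. Aars rises from 90.1 to 329 CPM on average at E13, while Kars lies at 239 CPM in both E13 groups.

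Among the mitochondrial genes Mars2 moved as far as many cytosolic ones: 9.89, 11.5 and 11.8 CPM in the controls and 25.0, 26.5 and 26.1 CPM with NRG1, a log2 change of 1.23 ± 0.1 (adjusted p = 4.16e-07). Yars2, the tyrosyl enzyme, went from 12.4 ± 0.558 to 23.3 ± 1.08 CPM (0.91 ± 0.09), and Nars2 from 6.95 ± 0.812 to 10.9 ± 0.833 CPM (0.65 ± 0.14, adjusted p = 0.00187). Ears2, Aars2, Rars2, Tars2 and Iars2 made up the rest of the 8, with log2 changes of 0.18 to 0.58. The 8 that did not pass the test ran from -0.18 for Fars2, the phenylalanyl enzyme, to 0.16 for Vars2, the valyl one. Lars2 had 184, 181 and 209 CPM in the controls and 184, 223 and 193 CPM with NRG1, overlapping groups (0.06 ± 0.12).

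Genes that work beside the synthetases were counted in the same test. Of the 3 scaffold genes of the multisynthetase complex, Aimp2 (1.46 ± 0.14) and Eef1e1 (1.18 ± 0.09) rose, and Aimp1 (0.04 ± 0.08) was not called. Of 4 genes of the mitochondrial amidotransferase and of formylation only Qrsl1, the amidotransferase's catalytic subunit, was called (1.46 ± 0.17, adjusted p = 7.85e-06). Of 5 cytosolic elongation factors 1 was called higher, and of 10 mitochondrial translation factors 2 were higher and 3 lower. Mitochondrial ribosomal proteins counted 42 higher and 2 lower of 76 tested, with a median of 0.28.

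Atf4 itself rose by 1.49 ± 0.08 on the log2 scale (adjusted p = 5.72e-09). Of 24 genes on the list of ATF4 and its other known targets, 22 were called higher and 2 lower, with a median of 1.35. Chac1, a glutathione-degrading enzyme, had the highest change on that list (5.04 ± 0.24), and Stc2, a secreted glycoprotein, followed (3.89 ± 0.16). The 2 that fell were Nupr1 (-0.73 ± 0.13) and Ddit3 (-0.50 ± 0.12), both genes of transcriptional regulators of the stress response.

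Because ATF4 is known to bind elements with the letters TGATGNAA, the promoters of the members were searched for them on both strands, in windows from 250 bases before to 50 bases after each annotated start, from RefSeq on GRCm38.p6. Cars, Hars, Lars, Nars, Rars, Vars, Wars, Hars2 and Pars2 had no window. A window was found for the other 26 of the 35 members. Of these, 5 held the letters (19.2%), against 4.51% of all 27025 genes with a window. They were Aars, Gars, Iars, Tars and Yars, all cytosolic and all among the 17 of 19 cytosolic genes called higher with NRG1 at E13. CACGTG, an E-box, stood in 5 of 26 members (19.2%; Aars, Farsb, Iars, Tars and Ears2) against 8.09% of all. A match is a description of letters and not a bound site, and a window without one says only that these letters are not in it. For each of these genes a site is shown as 30 bases on the strand of its gene, 5′ to 3′, with the match in capitals, because it lets the 8 letters and their flanks be compared between genes; TTGCATCA and TTTCATCA are the match read on the other strand. They lie at chr8:111033840-111033869 (Aars, plus strand), chr6:55037960-55037989 (Gars, plus), chr13:49682126-49682155 (Iars, plus), chr15:11399655-11399684 (Tars, minus) and chr4:129189895-129189924 (Yars, plus).
Aars: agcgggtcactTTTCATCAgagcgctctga
Gars: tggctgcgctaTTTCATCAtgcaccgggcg
Iars: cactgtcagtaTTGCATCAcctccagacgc
Tars: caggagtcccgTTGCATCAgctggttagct
Yars: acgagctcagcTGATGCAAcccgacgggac
The Gars site began 30 bases before the annotated start, while the sites shown for Aars, Iars and Yars began just after it. Mars2, the mitochondrial gene with the highest change, held neither motif, and the 250 bases before its start (chr1:55236927-55237176, plus strand) are shown for contrast.
Mars2: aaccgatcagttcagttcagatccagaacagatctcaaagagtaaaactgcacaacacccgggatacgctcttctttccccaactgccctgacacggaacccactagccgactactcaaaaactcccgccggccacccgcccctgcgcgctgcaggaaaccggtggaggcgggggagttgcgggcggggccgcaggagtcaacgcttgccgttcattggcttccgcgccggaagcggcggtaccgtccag

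The second comparison was the same one in end buds titled E14. The counts were close to those at E13, with 17 of 19 cytosolic genes called higher and 0 lower (median 0.66) and 7 of 16 mitochondrial genes higher and 0 lower (median 0.08). Over all genes 36.2% were called, 20.2% as higher and 16% as lower, with a median of 0.02. In all 24 members were called higher in both titles and 1, Iars2 (0.02 ± 0.06 at E14), at E13 alone. Aars had 145 and 124 CPM in the 2 controls and 336, 349 and 361 CPM with NRG1 (1.38 ± 0.08, adjusted p = 7.13e-08). Gars had 118 and 98.7 CPM without NRG1 and 255, 284 and 274 CPM with it (1.33 ± 0.09). Neither gene's groups overlapped. Tars, the threonyl enzyme, changed by 1.25 ± 0.08 and Yars by 1.18 ± 0.07.

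Farsb changed by 1.08 ± 0.07, Farsa by 0.66 ± 0.07 and Eprs by 0.52 ± 0.08 at E14. Kars (0.01 ± 0.06) and Qars (-0.15 ± 0.06, adjusted p = 0.0774) were again not called under TMM scaling. With RLE factors, and with library totals only, 1 member of each arm was called lower at E14. In the mitochondrial arm Nars2 (0.67 ± 0.17), Mars2 (0.66 ± 0.11) and Yars2 (0.66 ± 0.1) had the highest changes and Wars2, the tryptophanyl enzyme, the lowest (-0.26 ± 0.1, adjusted p = 0.0552). The cytosolic enzyme had the higher fold change in 11 of the same 12 amino acids, and in the other one the rounded changes were equal. Atf4 rose by 1.34 ± 0.09, and 21 of 24 genes on its list were higher and 1 lower. All 3 scaffold genes rose, and mitochondrial ribosomal proteins counted 58 higher of 76.

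The difference between the NRG1 effects in the 2 titles was tested directly. It was called for 2 members against 2.27% of all genes (0.735% higher and 1.53% lower), and in both the effect was smaller at E14: Aars by -0.49 ± 0.1 (adjusted p = 0.0172) and Farsb by -0.40 ± 0.09 (adjusted p = 0.0350). Mars2 had -0.56 ± 0.15 and was not called (adjusted p = 0.0731). Gars (-0.20 ± 0.11), Kars (0.01 ± 0.08), Farsa (0.04 ± 0.09) and Eprs (-0.09 ± 0.1) were not called, nor was Atf4 (-0.15 ± 0.11). With NRG1 the levels of Aars were close in the 2 titles, 329 ± 5.80 CPM at E13 and 349 ± 12.1 CPM at E14, whereas the controls were 90.1 ± 3.80 and 134 ± 14.8 CPM. Leaving out 1 sample at a time gave 0 to 3 called members, with 0 without E13 control B or E13 NRG1 B and 1 without E13 control A, E13 NRG1 A or C, E14 control C or E14 NRG1 B or C, so these calls rest on single samples.

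Control end buds of the 2 titles were compared with each other next. Of all genes 23.6% were called (14.4% higher and 9.20% lower), and of the members 7 were higher in buds titled E14 and 0 lower: Mars2 (0.69 ± 0.12), Aars (0.58 ± 0.07), Wars2 (0.34 ± 0.1), Cars (0.26 ± 0.07), Farsb (0.26 ± 0.07), Yars (0.25 ± 0.07) and Nars (0.23 ± 0.06). Gars (0.19 ± 0.08), Kars (-0.14 ± 0.06), Farsa (-0.13 ± 0.07) and Eprs (0.04 ± 0.08) were not called. Atf4 was higher by 0.27 ± 0.09 and Chac1 by 2.74 ± 0.29. Markers of other cells moved with the title: the 8 mesenchyme markers summed to 188 to 568 CPM in E13 controls and 1491 to 4985 CPM in E14 controls, the 5 endothelial ones to 3.37 to 15.6 and 176 to 280 CPM, and the 5 erythroid ones to 8.57 to 24.2 and 130 to 585 CPM. Their part in the result was not tested. Without E14 control B only Mars2 (0.84 ± 0.13) and Aars (0.46 ± 0.08) were called. Within each title the NRG1 groups had mesenchyme sums of 346 to 449 CPM at E13 and 3612 to 4511 CPM at E14.

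The next comparison asked how synthetase transcripts stood in epithelium under TORIN1. Cytosolic transcripts were lower in part: 6 of 19 were called lower and 0 higher, with a median of -0.18, while 0 of 16 mitochondrial genes were called, with a median of 0.16 that was 0.02 without the library TORIN1 A. Of all 14985 genes tested 5.83% were called, 2.46% as higher and 3.36% as lower, with a median of 0.02. The 6 were Aars, Gars, Farsb, Nars, Tars and Lars. Scaled by library totals only, 4 cytosolic genes were lower and 1 mitochondrial gene higher. All 6 had been called higher with NRG1 in both titles, and all 6 were among the 10 members with the highest NRG1 change at E13. With 17 of 19 cytosolic genes called higher in each title, the first of these overlaps was close to given. The same overlaps were not counted over all genes.

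Aars had 168, 145, 159 and 183 CPM under DMSO and 116, 116, 104 and 113 CPM under TORIN1 (-0.55 ± 0.09, adjusted p = 0.0149). Gars had 137, 114, 129 and 143 CPM under DMSO and 99.5, 91.2, 89.3 and 96.0 CPM under TORIN1 (-0.48 ± 0.09, adjusted p = 0.0231). In both genes every TORIN1 sample lay below every DMSO sample. Farsb had 133, 128, 125 and 119 CPM under DMSO and 108, 90.6, 77.3 and 85.9 CPM under TORIN1, again without overlap (-0.48 ± 0.11, adjusted p = 0.0383), whereas Farsa stood at 72.5 ± 2.15 and 73.0 ± 13.3 CPM (0.01 ± 0.12). Nars, the asparaginyl enzyme, fell by 0.44 ± 0.08 on the log2 scale. Kars (-0.15 ± 0.09) and Eprs (0.03 ± 0.1) were not called. Among the mitochondrial genes Hars2, the histidyl enzyme, came nearest to the threshold, at 47.7 ± 1.12 CPM under DMSO and 59.3 ± 4.96 under TORIN1 (0.31 ± 0.09, adjusted p = 0.0652).

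Of the 23 tested genes on the ATF4 list 5 were lower and 1 higher under TORIN1. Chac1 (-2.01 ± 0.24) and Asns, asparagine synthetase (-1.49 ± 0.12), fell furthest, Vegfa rose (0.37 ± 0.08), and Atf4 itself had -0.16 ± 0.13 (adjusted p = 0.533). None of the 3 scaffold genes and none of the 77 mitochondrial ribosomal proteins tested were called. The acinar markers also differed, with sums of 31923 to 50401 CPM under DMSO and 7698 to 22375 CPM under TORIN1. Their part in the result was not tested.

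One library of this set stood apart. TORIN1 A had 868 CPM of Lars2 against 110, 74.7 and 161 CPM in the other TORIN1 samples, and it had the highest Farsa, Sars, Fars2 and Vars2 and the lowest Iars of its group. Without it 25.4% of all genes were called and 15 members: 12 cytosolic ones lower and, of the mitochondrial ones, Hars2 higher (0.30 ± 0.07) and Fars2 (-0.43 ± 0.1) and Iars2 (-0.16 ± 0.05) lower. Lars2 had 0.23 ± 0.73 with it and -1.16 ± 0.5 without it, and Farsa -0.13 ± 0.06 without it, none of them called. Farsb without it had -0.58 ± 0.07, Aars -0.56 ± 0.08, Gars -0.51 ± 0.08 and Kars -0.23 ± 0.05. Without DMSO A, DMSO C, TORIN1 C or TORIN1 D 0 members were called, without DMSO B or D 2, and without TORIN1 B 5 (4 cytosolic lower and 1 mitochondrial higher), so the number of calls depends on single samples.

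**Figure D2:**
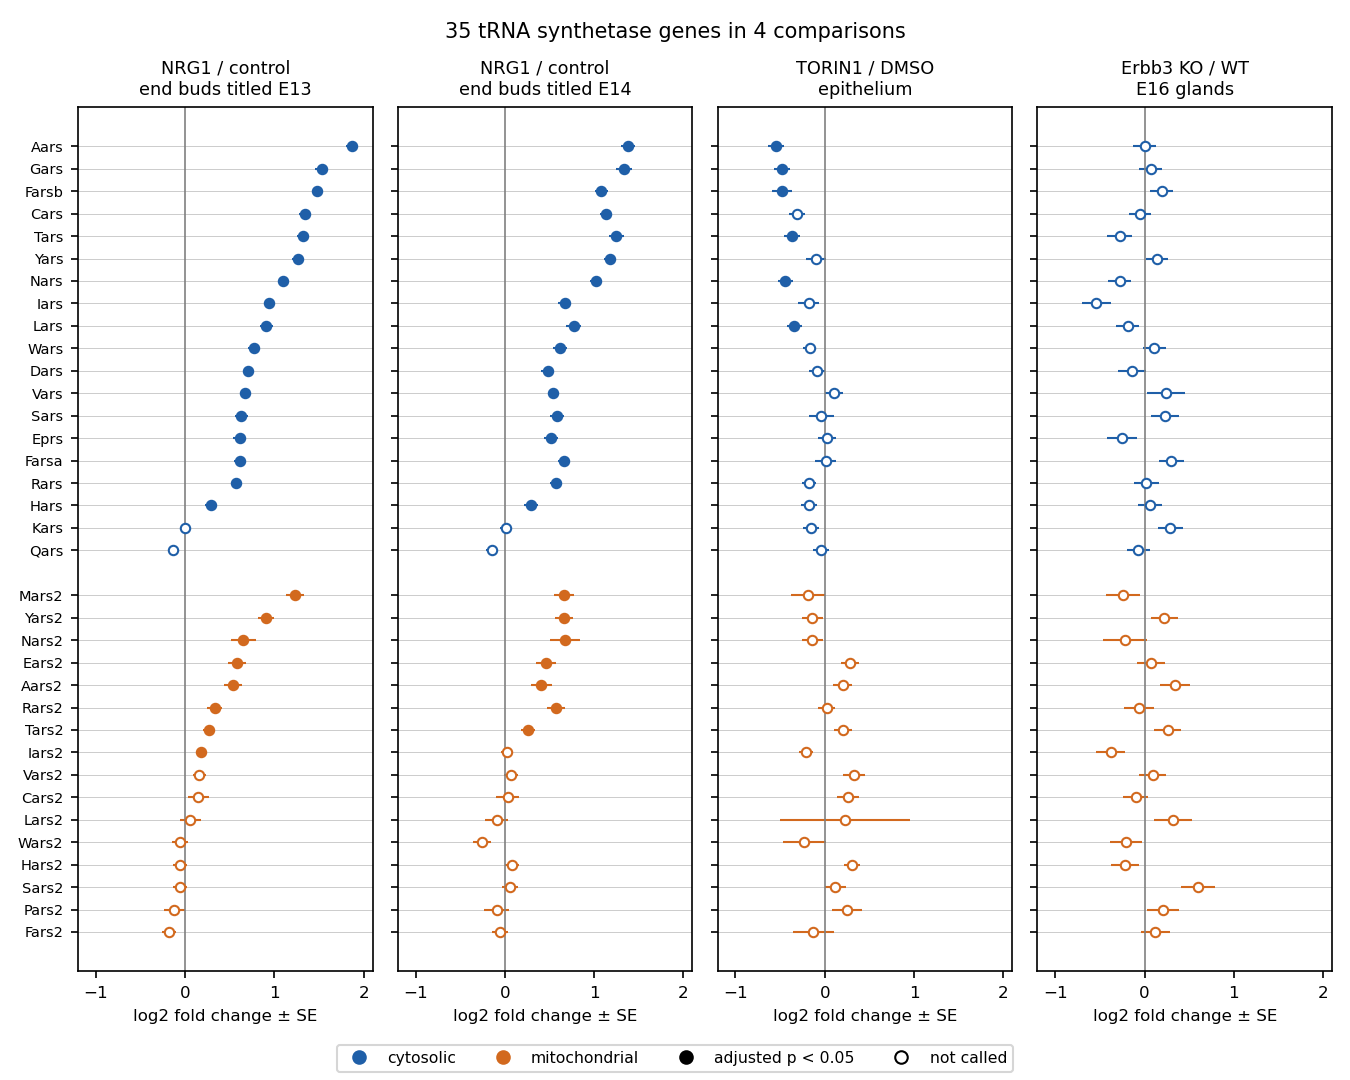
Log2 fold change ± SE of the 35 synthetase genes (cytosolic in blue, mitochondrial in orange, each arm ordered by its NRG1 change in E13 end buds) for NRG1 against control in both titles, TORIN1 against DMSO and Erbb3 KO against WT, with filled points at adjusted p under 0.05. Aars is at the top with NRG1 (1.87) and at the bottom under TORIN1 (-0.55), while in the KO panel every point is open.

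In E16 glands labelled Erbb3 KO the label was checked first. Erbb3 had 89.7, 69.6, 124 and 118 CPM in WT and 35.1, 32.0, 73.6 and 68.6 CPM in KO samples, overlapping at the edge (-0.94 ± 0.29, adjusted p = 0.0619). The part of the gene that the allele removes is not stated, and counts over the whole gene check the label only in part. Of the 35 synthetase genes 0 were called by edgeR, against 7.03% of all genes (2.83% higher and 4.20% lower). At an unadjusted p under 0.05 there were 4 (Sars2, Iars, Iars2 and Nars), against 31.9% of all genes, and DESeq2 called 2 members.

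Iars, the isoleucyl enzyme, came nearest to the threshold, with 91.2, 66.4, 95.0 and 90.3 CPM in WT and 50.7, 51.8, 67.3 and 66.4 CPM in KO (-0.54 ± 0.16, adjusted p = 0.0548). Sars2, the mitochondrial seryl enzyme, had 30.4, 63.4, 42.9 and 48.0 CPM in WT and 79.8, 67.0, 70.0 and 63.7 CPM in KO (0.60 ± 0.19, adjusted p = 0.0646). In the first of these WT 2 lay among the KO samples and in the second just below them. Gars (0.07 ± 0.13), Kars (0.29 ± 0.14), Farsa (0.30 ± 0.14), Farsb (0.19 ± 0.13) and Eprs (-0.25 ± 0.17) were not called, nor was Atf4 (0.37 ± 0.17, adjusted p = 0.152). Without WT 2, 24.3% of all genes and 5 members were called: Sars2 (0.83 ± 0.17), Farsa (0.42 ± 0.13) and Kars (0.41 ± 0.13) higher, and Iars2 (-0.45 ± 0.14) and Iars (-0.61 ± 0.14) lower. Markers differed between the groups as well, the acinar ones at 606 to 1940 CPM in WT and 127 to 264 CPM in KO and the Schwann ones at 315 to 555 and 596 to 734 CPM. In a whole gland, fewer cells of a type and less RNA per cell cannot be told apart.

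Through development, glands of E18 were compared with glands of E13 and each stage with the one before. Between E13 and E18 the members went both ways. In the cytosolic arm 6 were higher and 9 lower of 19, with a median of -0.12, and in the mitochondrial arm 5 were higher and 8 lower of 16, with a median of -0.17. This share of calls is near the background of 72.7% of all genes (36.5% higher and 36.2% lower, with a median of 0.01). Scaled by library totals only, which moved the median of all genes to -0.33, the split was 2 higher and 13 lower in the cytosolic arm and 2 higher and 10 lower in the mitochondrial one.

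Sars, the seryl enzyme (0.70 ± 0.12), Qars (0.54 ± 0.06), Farsa (0.42 ± 0.15) and Cars (0.38 ± 0.09) had the highest changes in the cytosolic arm. With library totals only Farsa (0.03 ± 0.11) and Cars (0.01 ± 0.07) were not called. Iars went from 139 ± 4.09 to 67.1 ± 14.5 CPM (n = 4 each; -1.05 ± 0.13, adjusted p = 9.4e-08), Eprs from 247 ± 8.56 to 138 ± 16.3 CPM (-0.84 ± 0.09) and Vars, the valyl enzyme, from 175 ± 9.28 to 113 ± 11.5 CPM (-0.63 ± 0.07). The E18 and E13 samples did not overlap in Iars, Eprs or Vars. Dars, the aspartyl enzyme, fell by 0.48 ± 0.09. Gars (-0.04 ± 0.09), Kars (-0.10 ± 0.08) and Farsb (-0.12 ± 0.09) were not called. Gars had a narrow range of 129 to 162 CPM over the 24 glands apart from 1 of 201 CPM, in E15 B.

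In the mitochondrial arm Cars2, the cysteinyl enzyme, went from 10.8 ± 1.23 to 25.2 ± 1.92 CPM (1.22 ± 0.1, adjusted p = 9.17e-11), Fars2 from 15.8 ± 0.528 to 33.4 ± 11.5 CPM (1.07 ± 0.16) and Ears2, the glutamyl enzyme, from 19.2 ± 1.53 to 29.9 ± 12.1 CPM (0.64 ± 0.16). Lars2 (-0.93 ± 0.24), Wars2 (-0.54 ± 0.14) and Mars2 (-0.46 ± 0.11) had the lowest changes. For 3 of the 12 amino acids with a gene of their own in each arm, the 2 enzymes were called in opposite directions. Nars was higher (0.20 ± 0.06) and Nars2 lower (-0.41 ± 0.14), Lars higher (0.32 ± 0.07) and Lars2 lower, and Tars lower (-0.34 ± 0.08) and Tars2 higher (0.31 ± 0.09). The same held for glutamate, whose cytosolic enzyme is part of Eprs: Eprs was called lower and Ears2 higher. With library totals only Nars (-0.14 ± 0.08), Lars (-0.03 ± 0.07) and Tars2 (-0.05 ± 0.08) turned in sign and were not called. Ears2 kept its sign but was not called either (0.25 ± 0.12), so the opposite calls hold only under TMM and RLE scaling.

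One E18 library, E18 D, stood apart from the other 3. It had 158 CPM of Farsa against 72.7 to 82.2 CPM, 333 of Sars against 194 to 216, 48.1 of Ears2 against 23.6 to 24.3 and 45.5 of Iars against 72.8 to 77.0. Its TMM factor was 0.701. Without it the calls for Cars2 (1.21 ± 0.1), Qars (0.54 ± 0.06), Eprs (-0.77 ± 0.08) and Iars (-0.90 ± 0.1) were close to those above, Ears2 had 0.32 ± 0.09 and Iars2 was called higher (0.42 ± 0.08). Sars (0.49 ± 0.08) and Cars (0.23 ± 0.07) then had smaller changes, Farsb was called lower (-0.23 ± 0.07, adjusted p = 0.00456), and Farsa (0.10 ± 0.08) and Sars2 (0.13 ± 0.1) were not called.

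The steps between stages gave unequal numbers of calls, among all genes as among the members. E14 against E13 gave 3 called members against 19.5% of all genes, all mitochondrial and higher (11.8% of all genes were higher and 7.63% lower): Cars2 (0.35 ± 0.1), Mars2 (0.34 ± 0.1) and Vars2 (0.25 ± 0.08). Without E13 gland B 0 were called at that step and without E14 gland D 1. The Vars2 call was lost without any 1 of E13 A, B or D or E14 B or D (edgeR adjusted p = 0.0699 to 0.105). E15 against E14 gave 15, of which 7 were higher and 8 lower, against 49.7% of all genes (24.7% higher and 25.0% lower). At that step Iars (144 ± 14.4 to 84.0 ± 11.3 CPM, -0.77 ± 0.13), Eprs (267 ± 29.2 to 169 ± 13.9 CPM, -0.66 ± 0.09), Lars (-0.38 ± 0.07) and Tars (-0.33 ± 0.08) fell in the cytosolic arm, and Sars (0.49 ± 0.12) and Qars (0.18 ± 0.06) rose. Of the mitochondrial genes Fars2 (0.66 ± 0.16), Cars2 (0.37 ± 0.1) and Sars2 (0.32 ± 0.12) rose most and Lars2 (-0.63 ± 0.24), Mars2 (-0.61 ± 0.1) and Nars2 (-0.38 ± 0.13) fell most. The Lars2 call was lost without any 1 of E14 B, C or D or of the 4 E15 samples (adjusted p = 0.0537 to 0.104), and the Nars2 call without E14 B, C or D or E15 A or C. Sars2 lost its call without E14 A or E15 A and with no filter on low counts (edgeR adjusted p = 0.0570 to 0.108). Qars lost its call without E15 B, with no filter and with only the compared groups fitted (edgeR adjusted p = 0.0673 to 0.117). Mars2 was called higher at E14 than at E13 and lower at E15 than at E14, and the 2 steps share the E14 samples. Its call at the first step was lost without E13 B or E14 D and with library totals only (edgeR adjusted p = 0.0524 to 0.0707).

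E16 against E15 gave 6 called members against 23.5% of all genes (12.2% higher and 11.3% lower): Lars2 (0.91 ± 0.24), Cars2 (0.37 ± 0.09), Lars (0.35 ± 0.07), Qars (0.26 ± 0.06) and Nars (0.23 ± 0.06) higher and Pars2, the mitochondrial prolyl enzyme (-0.50 ± 0.12), lower. With library totals only that step had 1 cytosolic and 2 mitochondrial genes higher and 2 of each lower. E17 against E16 gave 2 against 5.50% (3.39% higher and 2.11% lower), Vars (-0.24 ± 0.07) and Aars2 (-0.34 ± 0.08), both lower, and leaving out any 1 of the E16 samples, E17 A, E17 B or E17 D left 1. The Vars call was lost without any 1 sample of either stage (edgeR adjusted p = 0.0621 to 0.110). E18 against E17 gave 7 against 13% (5.91% higher and 7.09% lower): Lars higher (0.22 ± 0.07) and Wars (-0.47 ± 0.09), Yars2 (-0.36 ± 0.11), Vars (-0.35 ± 0.07), Farsb (-0.32 ± 0.09), Kars (-0.27 ± 0.08) and Aars (-0.21 ± 0.06) lower. With library totals only 0 were higher and 10 cytosolic and 4 mitochondrial genes lower. Without E18 D the last step had 6, with Lars and Kars no longer called and Sars2 (-0.34 ± 0.1) called lower. Without E17 C it had 3, and without E17 B, E17 D or E18 A 4. The Lars call was also lost without any 1 of the E17 samples or E18 A (edgeR adjusted p = 0.0517 to 0.146). The Kars call was also lost without E17 C, E17 D or E18 B. Yars2 lost its call without E17 A, E17 B, E17 C or E18 B, and Farsb without E18 A (edgeR adjusted p = 0.0503 to 0.0730). Farsa (-0.06 to 0.22) and Gars (-0.16 to 0.15) were called at none of the 5 steps, Kars (-0.07 to 0.14) and Farsb (-0.02 to 0.20) at none of the first 4, and Eprs (-0.16 to 0.11) at none but E15 against E14. Atf4 was called at none of the 5 steps and was higher at E18 than at E13 (0.94 ± 0.17).

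Marker sums of several cell types moved with stage over the same glands, in which cell number and RNA per cell cannot be told apart. The 8 mesenchyme markers summed to 13086 to 13292 CPM at E13 and 7877 to 9529 CPM at E15, the 8 epithelial ones to 827 to 958 and 2151 to 2757 CPM, and the 5 acinar ones to 1.18 to 14.9 CPM at E13 and 151996 to 160974 CPM at E18. Their part in the changes of single synthetases was not tested. At E18 the cytosolic arm held 0.186% ± 0.00991 of all counts and at E13 0.256% ± 0.00238 (n = 4 each), a ratio of 0.728. On the TMM-scaled total of tested genes the ratio was 0.928.

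**Figure D3:**
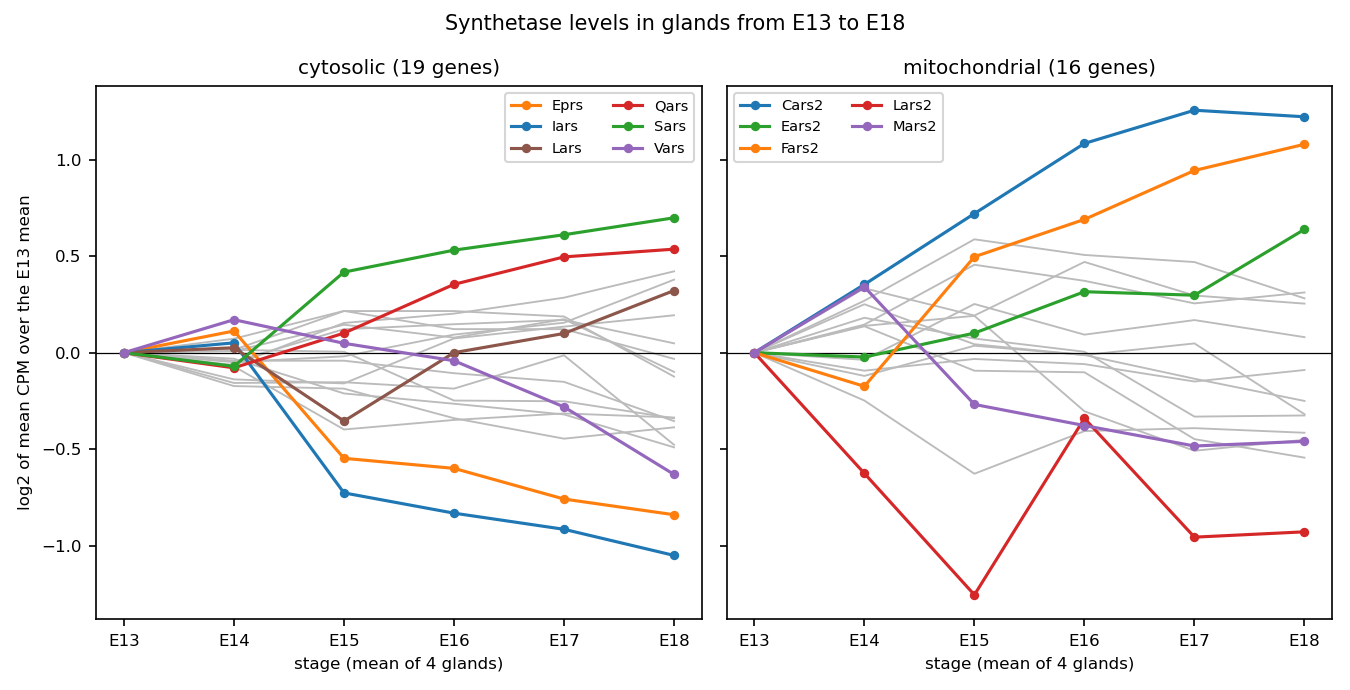
Log2 of the mean CPM at each stage over the E13 mean for the 19 cytosolic and 16 mitochondrial synthetase genes in glands of 4 samples a stage, with the genes named in the legend in colour and the others in grey. Iars and Eprs drop between E14 and E15, Cars2 climbs to a log2 change of 1.22 at E18, and Lars2 moves up and down between stages.

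Lars2 set the level of the mitochondrial arm in glands of the stage series, but not in those of the KO set (23.1% of the arm in WT and 26.7% in KO). It ranged from 683 to 2196 CPM over the 24 glands and made up 64.3% to 82.6% of the arm's summed CPM, as stage means, against 133 to 223 CPM in the 11 end bud samples. The other 15 mitochondrial genes summed to 394 ± 11.4 CPM at E13 and to between 430 and 456 CPM, as means, from E14 to E18. The gene Gm42418 was also high in glands and low in end buds: it had 8187 to 26994 CPM in glands and 1494 to 2897 CPM in end buds. Its part in the Lars2 values was not tested. In the WT glands of the KO set, also of E16, Lars2 had 145 ± 42.9 CPM, against 1506 ± 349 CPM in the E16 glands of the stage series; these tables were scaled separately.

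**Figure D4:**
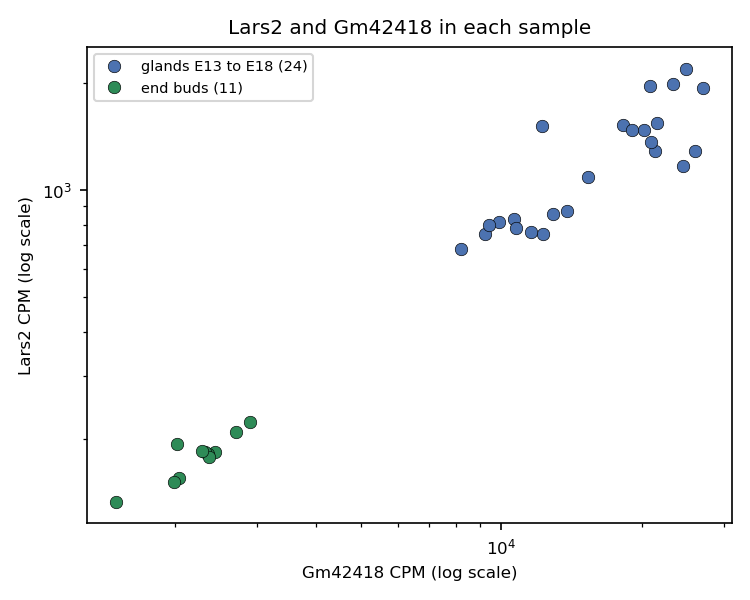
Lars2 CPM against Gm42418 CPM, both on log axes, with 1 point for each of the 24 glands (blue) and the 11 end bud samples (green). The glands sit at 683 to 2196 CPM of Lars2, all above the end buds at 133 to 223 CPM.

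The balance of the arms was followed as the summed CPM of the 19 cytosolic genes over that of the mitochondrial ones, as a description. With all 16 mitochondrial genes the ratio was 3.36 ± 0.101 in E13 control buds and 5.12 ± 0.210 with NRG1 (n = 3 each), and 3.61 ± 0.269 (n = 2) and 5.40 ± 0.254 (n = 3) at E14. Without Lars2 it was 4.83 ± 0.0959 and 7.13 ± 0.101 at E13 and 4.96 ± 0.236 and 7.09 ± 0.156 at E14. Control and NRG1 samples did not overlap on either scale. Under TORIN1 the ratio without Lars2 was 4.21 to 4.47 against 4.93 to 5.44 under DMSO, with no overlap, whereas with Lars2 the groups overlapped (1.73 to 3.68 and 2.86 to 3.88). In KO glands it was 5.67 ± 0.172 and in WT glands 5.78 ± 0.466 without Lars2, overlapping, and over the 6 stages it had means of 5.14 to 6.14.

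**Figure D5:**
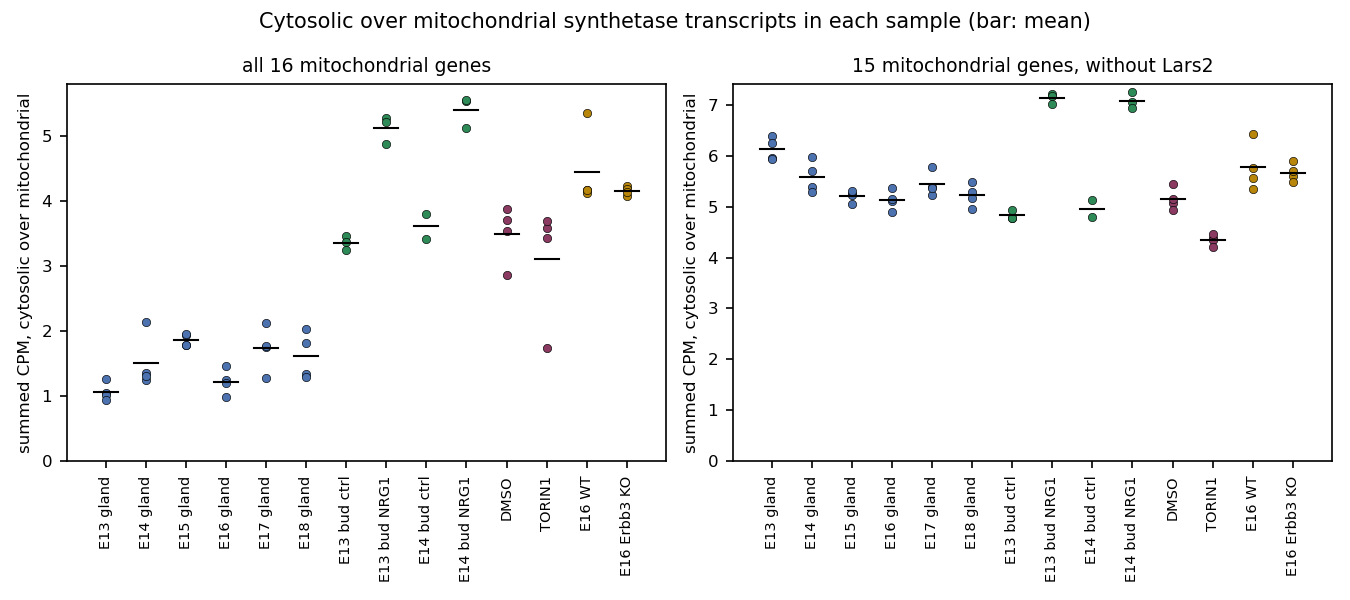
Summed CPM of the 19 cytosolic synthetase genes over that of the mitochondrial ones in each sample, with all 16 mitochondrial genes (left) and without Lars2 (right), points for samples and bars for means. Without Lars2 the NRG1 end buds stand at 6.95 to 7.25, above every other sample, and the TORIN1 samples at 4.21 to 4.47, below every other sample.

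In NRG1 cultures the called members were lower at the first step and higher at the second. Between days 2 and 3, 7 were lower and 0 higher, against 49.3% of the table's 5171 genes tested (25.3% lower). Aars had 466 and 474 CPM on day 2, 333 and 345 CPM on day 3 and 426 and 419 CPM on day 4, where CPM refers to the counts in this table only. Its change was -0.47 ± 0.05 (adjusted p = 0.00247) to day 3 and 0.32 ± 0.05 (adjusted p = 0.00678) to day 4, and no sample of one day overlapped another. Cars (-0.37 ± 0.08), Yars (-0.36 ± 0.07) and Vars (-0.29 ± 0.07) fell to day 3 in the cytosolic arm, as did Gars (-0.27 ± 0.08), and Aars2 (-0.44 ± 0.08) and Sars2 (-0.40 ± 0.08) in the mitochondrial one.

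Between days 3 and 4, 10 were higher and 0 lower, against 46.6% of the genes (24.6% higher). Gars (0.40 ± 0.08), Nars (0.37 ± 0.06), Lars (0.34 ± 0.06) and Cars (0.34 ± 0.08) had the highest changes in the cytosolic arm, and Mars2 (0.41 ± 0.09) and Ears2 (0.29 ± 0.08) were called in the mitochondrial one. With library totals only, 7 cytosolic and 1 mitochondrial gene were higher and 1 mitochondrial gene lower. Not all genes turned: Sars2 had 67.2 and 68.2, then 51.9 and 50.7, then 45.8 and 41.9 CPM, with -0.23 ± 0.08 at the second step (adjusted p = 0.0586). Kars, Farsa, Farsb and Eprs are not among the 15. Atf4 was lower at day 3 (-0.24 ± 0.05) and higher at day 4 (0.26 ± 0.05), and of the 15 genes of its list here, 8 fell and 1 rose at the first step while 14 rose at the second. Both steps share the day 3 samples, so a value at day 3 enters each with opposite sign. With 2 samples a day, leaving out 1 at a time gave 1 to 7 called members at the first step and 4 to 9 at the second, with 1 without day 2 sample 1, 2 without day 2 sample 2, and 4 at either step without day 3 sample 1. The acinar markers summed to 7631 to 9249, 35678 to 38710 and 93803 to 95099 CPM on days 2, 3 and 4, and their part in the result was not tested. Qars, not called with NRG1 in end buds, had 0.10 ± 0.05 at the first step and 0.08 ± 0.05 at the second and was called at neither.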

How the data were processed

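RNA-seq counts per gene were deposited by the authors as raw whole-number counts in 5 tables, made with fastp, STAR and featureCounts on mm10, per the submitters' processing notes; the sources used here do not state versions, strand setting or how reads with several matches were counted. Total RNA was extracted and NEBNext Ultra libraries were made, per the labels' protocols. The culture table lists only 5179 genes, so its CPM are not those of whole libraries; 8 entries whose names had turned into dates, with 0.123% of its counts, were left out. Every pair of replicates differed by more than sampling noise (lowest chi-square per gene 2.88).

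Each table was fitted separately, all of its groups together, with edgeR 4.0.16 in R 4.3.3 (filterByExpr, TMM, robust quasi-likelihood F test, two-sided), and p-values were adjusted by Benjamini-Hochberg over all genes tested. SE was taken as the size of the log2 fold change divided by √F. CPM were computed on TMM-scaled totals of tested genes. Transcript lengths and overlaps come from GENCODE M21 (GRCm38). The fits were tested on simulated data. Alternatives were RLE factors, library totals, no filter, DESeq2 1.42.0, a replicate block, only the compared groups and leaving out each sample; summed shares were also computed without Lars2, chosen after its level was seen.

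The members, context lists, markers and alternatives were chosen with earlier results of these data known. The text names at most the 4 highest and 4 lowest called cytosolic members and the 3 highest and 3 lowest called mitochondrial ones, those nearest the threshold where few were called, and in every comparison those of Gars, Kars, Farsa, Farsb, Eprs and Atf4 that its table lists. Qars, Lars2, the members changed by leaving out a sample and the promoter sites were named after their values were seen. Some of the promoter sequences found are not reported here.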

Additional observations from a re-analysis of the deposited data

Results flagged for a closer look

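In groups of 4 samples, the gap of the highest or lowest sample to its nearest neighbour was set against the group's range by Dixon's criterion, for each synthetase gene and for the summed CPM of each arm. Chance gives about 1 in 20 groups, and 38 of 370 checks (10.3%) passed. All values are CPM.

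E18 gland D stood apart most often: it was highest for Farsa (158, others 72.7 to 82.2), Sars (333, others 194 to 216), Rars (92.0, others 63.0 to 66.0), Tars (94.8, others 75.5 to 76.5) and Ears2 (48.1, others 23.6 to 24.3), and lowest for Iars (45.5, others 72.8 to 77.0) and Iars2 (51.1, others 89.3 to 93.0). Its cytosolic sum of 2452 lay above the others at 2156 to 2206. TORIN1 A was highest for Farsa (92.7, others 63.5 to 68.5), Sars (286, others 184 to 199), Yars (80.0, others 62.7 to 63.7) and Lars2 (868, others 74.7 to 161), had a mitochondrial sum of 1435 against 597 to 686, and was lowest for Iars (104, others 139 to 146). High Farsa and Sars with low Iars thus occurred in both of these libraries.

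E15 gland B was highest for Aars (226, others 196 to 198), Gars (201, others 139 to 147), Wars (86.9, others 70.8 to 71.6) and Vars2 (43.2, others 34.4 to 35.2). In the same stage gland A was highest for Sars2 (32.9) and gland D had the lowest mitochondrial sum (1191). E13 gland B was lowest for Iars2 (63.6) and Mars2 (15.1). At E14 gland A was highest for Eprs (310) and gland C lowest for Vars (190) and highest for Cars2 (14.3). At E16 gland B was lowest for Rars (72.1) and gland A highest for Wars (86.0), and Wars was lowest in E17 gland A (75.3). E18 gland A was lowest for Nars (163).

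Under DMSO, sample A was highest for Fars2 (29.0) and Tars2 (56.7), B highest for Kars (175) and lowest for Mars2 (25.9), C lowest for Wars (53.4) and D lowest for Cars2 (27.2). In the WT glands of the KO set, WT 2 was lowest for Iars (66.4, others 90.3 to 95.0), and WT 1 was highest for Tars (114) and lowest for Aars2 (26.3).

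The NRG1 effect differed between end buds of both titles in a direct test for Aars (-0.49 on the log2 scale, E14 minus E13) and Farsb (-0.40). What set these samples apart was not tested.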

How the results depend on the processing

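Counts of called members kept within 1.5 times under the alternatives except as follows. Of the members called under TMM, 4 (Lars, Nars, Sars2 and Tars2, all in E18 against E13) turned in sign with library totals only and 0 with RLE factors. Members not called also turned in sign, among them Lars2, Farsa and Rars2 under TORIN1 without TORIN1 A. In control buds without E14 control B, Eprs went from 0.04 to -0.03 and Rars from 0.01 to -0.11. In E18 against E17 without E18 D, Sars went from 0.09 to -0.12. Not every such turn is listed. With library totals only, E18 against E17 gave 14 called members and Erbb3 KO against WT 1; that scaling moved the median of all genes by -0.18 and -0.15, and by -0.33 in E18 against E13. With no filter, E17 against E16 gave 1 and the KO set 2. DESeq2 gave 5 for E14 against E13 glands and 2 for the KO set. Fitting only the compared groups gave 6 for E14 against E13, 1 for E18 against E17 and 2 for control buds. The cause was not tested.

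Leaving out 1 sample at a time gave 0 to 4 called members for E14 against E13, 11 to 14 for E15 against E14, 6 to 7 for E16 against E15, 1 to 2 for E17 against E16, 3 to 6 for E18 against E17 and 26 to 28 for E18 against E13. The ranges were 24 to 27 for NRG1 at E13, 20 to 24 at E14, 0 to 3 for their difference, 2 to 8 for control buds, 0 to 15 for TORIN1, 0 to 5 for the KO set, and 1 to 7 and 4 to 9 for the culture steps.

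Same-numbered samples did not deviate together throughout. Correlations were over 0.1 in 2 of 15 pairs in end buds, 8 of 60 in glands, 0 of 4 in the KO set and 2 of 6 in culture. In the TORIN1 set they were over 0.1 in 3 of 4 pairs, with a range of -0.125 to 0.434. Whether the numbers pair the samples of that set is not stated, and the main fits did not use them as pairs. With the replicate block E17 against E16 gave 1 called member, TORIN1 4, the KO set 0, NRG1 25 at each title and E18 against E13 28.

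The share of all counts held by the cytosolic genes in E18 over that in E13 was 0.728, and 0.928 on the TMM-scaled total. For the mitochondrial genes it was 0.494, 0.622 on that total and 0.857 without Lars2. For NRG1 at E13 the cytosolic ratio was 1.66 and 1.72, and at E14 the mitochondrial one was 1.04, 1.08 and, without Lars2, 1.09. Under TORIN1 the cytosolic ratio was 0.908 and 0.875. In KO over WT the cytosolic ratio was 0.958 and 1.04, and the mitochondrial one 1.02, 1.10 and, without Lars2, 0.973, so neither has a fixed direction.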
